A study of Mus musculus with 8 samples.

Results

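The epithelial-mesenchymal transition regulators examined here are 10 genes, namely the transcription factors Zeb1, Zeb2, Snai1, Snai2, Twist1 and Twist2, the mesenchymal filament gene Vim, the cadherins Cdh2 and Cdh1, and the epithelial adhesion gene Epcam. The genes were set by name and found through the mouse symbols of the Ensembl identifiers, and all 10 were present among the 25006 genes of each count table. All 10 passed the filter on low counts, which kept 15310 genes. The data were RNA-seq read counts from 8 bulk tumor libraries. The tumors came from 4T1, a mammary carcinoma line of Balb/c origin that models triple-negative disease, and had been placed in the mammary fat pad and taken out by day 20. Libraries fell into 4 groups of 2 by host and by CD95 status. CD95, also called Fas, is a death receptor. The NSG wild-type and the Balb/c wild-type groups each held 1 tumor library of the parental line and 1 of a line with stable vCas9 expression. The NSG knockout and the Balb/c knockout groups each held 1 library of CRISPR/Cas9 CD95 knockout clone 54 and 1 of clone 69. Tumors of both genotypes thus shared the 4T1 origin, and each of the 4 lines was grown in both hosts. NSG mice have no mature lymphocytes (T, B or NK cells) but keep macrophages, neutrophils and stromal cells, whereas the immune system of Balb/c mice is complete. Host strain and immune status cannot be told apart in this design, and neither can CD95 status and the isolation of clones. The ages of the mice, and whether a library held 1 tumor or a pool, were not given in the sources used here.

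In an epithelial-mesenchymal transition, epithelial cells lose junctions and apical-basal polarity and take on a migratory, matrix-producing state. Factors of the ZEB, SNAI and TWIST families bind E-box sequences, and ZEB and SNAI factors are known to repress Cdh1 and other junction genes. The same factors are expressed in normal tissue too: SNAI and TWIST genes in fibroblasts, Zeb2 in macrophages, NK cells and T cells, and Vim in most stromal cells and leukocytes. 4T1 cells themselves are known to keep epithelial features, including Cdh1, while being highly metastatic.

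E-boxes were looked for in the 250 bases before the start of 6 of the 10 genes, since the factors among them act through these sites. RefSeq promoter windows of the GRCm38.p6 build were matched by symbol for Zeb2 (4 windows), Snai1, Twist1, Twist2, Vim and Epcam. Promoters of Cdh1, a main known target of these factors, and of Zeb1, Snai2 and Cdh2 were not analysed here. The motif CACCTG, bound by ZEB and SNAI factors, was searched on both strands, so that it reads CACCTG or CAGGTG. It was found in 5657 of 32851 mouse promoter windows of this length, or 17.2%. The Epcam window on chr17:87635729-87635978 (+ strand) held 2 matches, which began at positions -187 and -19 relative to the start. The Snai1 window on chr2:167537945-167538194 (+ strand) held 1 match, which began at position -126. The windows of Zeb2, Twist1, Twist2 and Vim held no match to these letters. The wider E-box CANNTG, which contains CACCTG, occurred in 66.2% of all windows and, among these genes, at the same sites as CACCTG. The 2 windows with a match are shown because they carry the sites, with the matches in capitals.
Epcam: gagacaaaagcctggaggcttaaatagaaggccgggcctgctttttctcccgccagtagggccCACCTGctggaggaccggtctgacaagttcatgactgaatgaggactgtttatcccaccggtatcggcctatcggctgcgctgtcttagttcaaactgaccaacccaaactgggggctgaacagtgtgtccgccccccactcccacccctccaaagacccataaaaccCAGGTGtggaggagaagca
Snai1: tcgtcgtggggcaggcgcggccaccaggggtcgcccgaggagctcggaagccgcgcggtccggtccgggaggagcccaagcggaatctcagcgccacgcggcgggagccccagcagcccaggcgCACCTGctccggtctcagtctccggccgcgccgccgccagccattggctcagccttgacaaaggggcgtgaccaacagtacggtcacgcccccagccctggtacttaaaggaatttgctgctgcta

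Total counts ranged from 8.68 to 19.7 M per library, with the NSG knockout libraries at the low end. Fas was read in every library, from 12.9 to 51.6 CPM (read counts scaled to TMM-adjusted library totals), so that the knockout status rests on the labels. The libraries of a group are different lines, and their counts differed by more than sampling noise, with a chi-square per degree of freedom from 18.3 in the Balb/c wild-type group to 116 in the Balb/c knockout group. In that last group the simple-epithelium keratins Krt8 and Krt18 summed to 301 CPM in the clone 54 library and 2353 CPM in the clone 69 library, the lowest and the highest sums of the 8. Medians that rest on this pair, and some counts between hosts, are therefore also given without its libraries where these change them. T cell markers summed to 4.60 to 8.86 CPM in the NSG groups and 264 to 296 CPM in the Balb/c groups.

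Compared per kilobase of exon, Vim was the most abundant of the 10 genes, with a mean over the 8 libraries of 538 CPM per kb. Epcam followed at 76.3, Cdh1 at 38.3 and Zeb2 at 33.1 CPM per kb. The libraries of Epcam spanned 20.6 to 190 CPM per kb, and this order did not hold in every group. In Balb/c wild-type tumors the means were 56.8 for Zeb2, 45.2 for Epcam and 33.1 CPM per kb for Cdh1. The libraries of Cdh1 spanned 12.6 to 59.1 CPM per kb and those of Zeb2 13.1 to 61.3, so that these neighbours did not differ beyond their spread. Zeb1 stood at 8.74, Snai1 at 6.47 and Twist1 at 6.39 CPM per kb, again with overlapping ranges. Snai2 at 1.85, Twist2 at 1.02 and Cdh2 at 0.542 CPM per kb were the scarcest, and Twist2 rested on as few as 7 counts in a library. Vim, Cdh1 and Epcam were thus read together in every library.

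**Figure D1:**
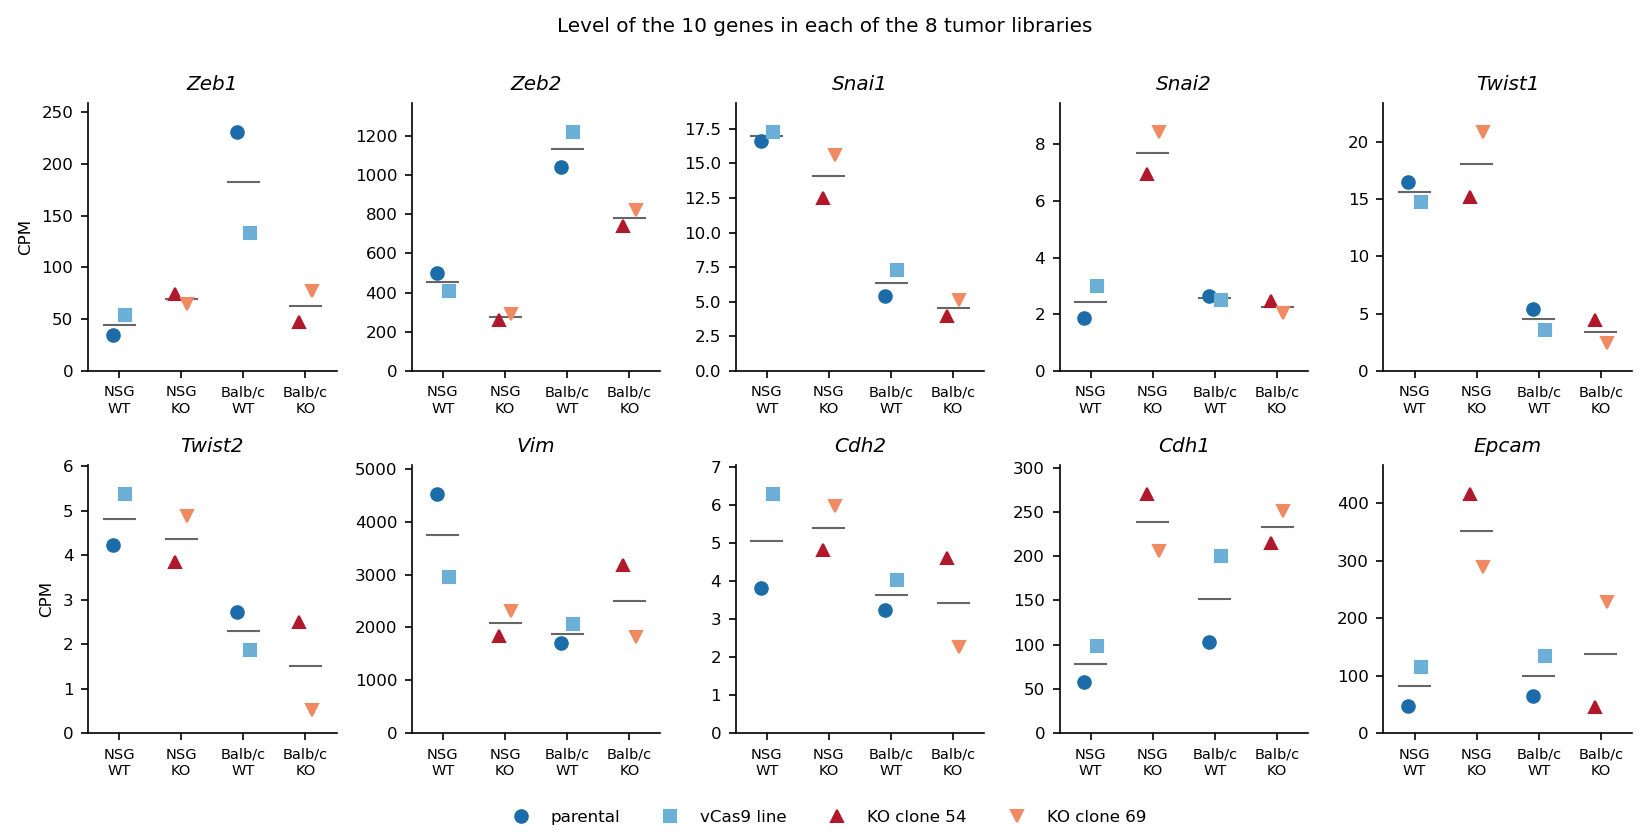
Level of each of the 10 genes in CPM (y axis, from 0) in the 4 groups (x axis). Each symbol is 1 library of the line named in the key and each bar is the mean of 2 libraries. Zeb2, Snai1, Twist1 and the scarce Twist2 separate by host, whereas the 2 Balb/c knockout libraries of Epcam lie far apart, at 45.2 and 228 CPM.

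Between hosts, 4 of the 10 genes passed the test in wild-type tumors and 4 in knockout tumors. In wild-type tumors Zeb1 and Zeb2 were higher and Snai1 and Twist1 were lower in Balb/c than in NSG mice. In knockout tumors Zeb2 was higher and Snai1, Snai2 and Twist1 were lower in Balb/c. Of all genes tested, 31.5% passed in wild-type tumors and 31.1% in knockout tumors (edgeR quasi-likelihood test, Benjamini-Hochberg adjusted p under 0.05), so the shares among the 10 genes were close to the background. With the line as a block, which pairs the hosts, 2073 genes passed in wild-type and 2878 in knockout tumors, and the same 4 and 4 of the 10 genes were called. The median log2 fold change of the 10 genes was -0.19 in wild-type tumors, against -0.08 over all genes tested, and -1.004 against 0.02 in knockout tumors. The wild-type median turned to 0.18 without the NSG vCas9 library and was -0.44 without the NSG parental library and -0.41 without the Balb/c vCas9 library. The knockout median was -0.96 without the Balb/c clone 54 library and -0.67 without the clone 69 library. The range of members called when single libraries were left out is given under the processing for both genotypes. The tests of the 2 genotypes use separate libraries but share 1 estimate of the spread.

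The knockout changed none of the 10 genes past the threshold in either host. In NSG tumors 2 of the 15310 genes passed, or 0.0131%, and in Balb/c tumors 27 passed, or 0.176%. At an unadjusted p under 0.05, edgeR counted 5 of the 10 genes in NSG and 2 in Balb/c. The share of all genes at that threshold is not given here, so such counts, here and below, have no background beside them. DESeq2 called 3 in NSG (Zeb2, Snai2 and Cdh1) and 2 in Balb/c (Zeb1 and Zeb2), and limma-voom called 0 in both. DESeq2 and the fit without a count filter called more genes in all than edgeR with the filter, as given under the processing. The shares above are therefore not the background of their counts, here or for the lists below. The difference of the knockout effects between hosts passed for 0% of all genes and for 0 of the 10, of which 3 had an unadjusted p under 0.05. DESeq2 called 1 of the 10 for that difference (Zeb1) and 974 genes in all, and limma-voom called 0. The knockout comparisons and the host comparisons share libraries, and they are given side by side for that reason.

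**Figure D2:**
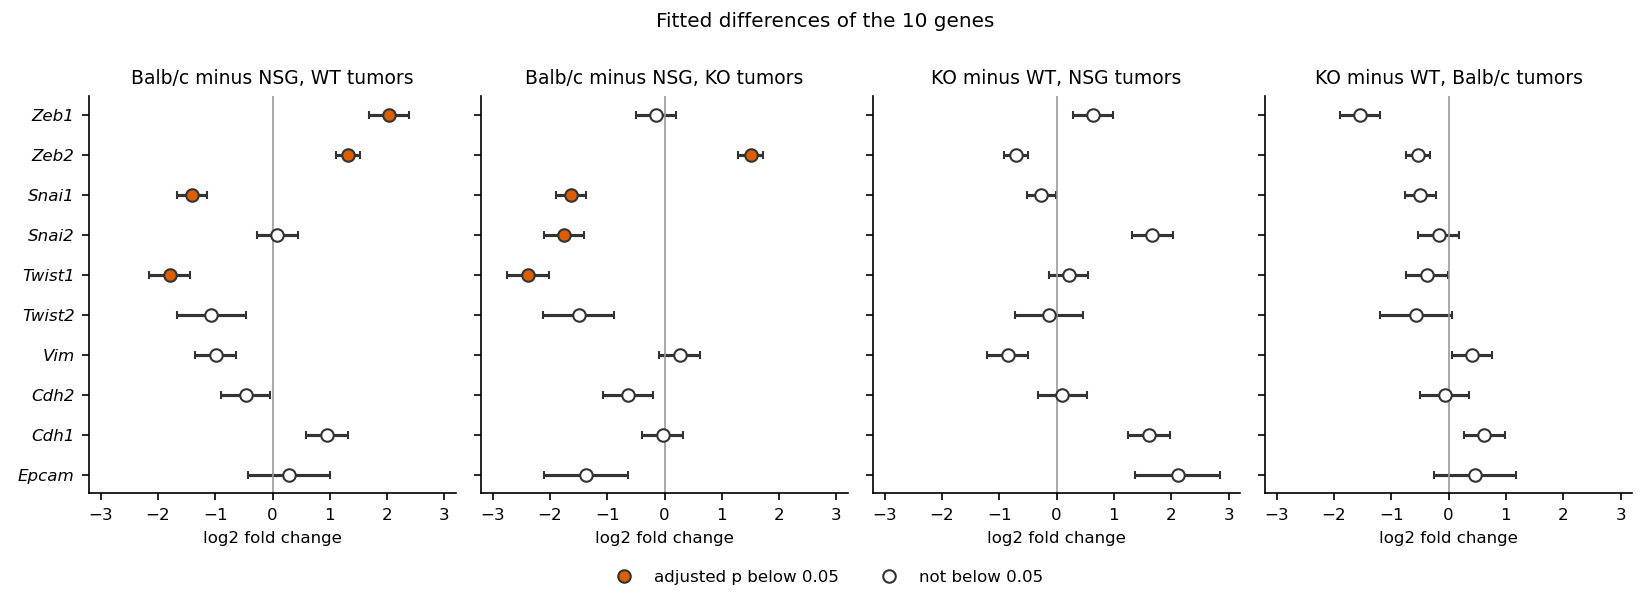
Fitted log2 fold change of each gene (x axis) in the 4 comparisons, with bars of 1 standard error from edgeR. Filled points had an adjusted p below 0.05; they are 4 genes in each host comparison and none in the knockout comparisons.

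Zeb2, a zinc finger homeobox repressor of Cdh1 (chromosome 2, 44983632 to 45117395 in GRCm38), showed the host difference in each of the 4 lines. In NSG mice it had 499 CPM in the parental and 408 CPM in the vCas9 tumor, and 261 and 291 CPM in the clone 54 and clone 69 tumors. In Balb/c mice the same lines gave 1042, 1222, 740 and 824 CPM. No Balb/c library overlapped an NSG library. Zeb2 rose by 1.32 on the log2 scale (SE 0.21, adjusted p = 0.00557 by edgeR, n = 2 per group) in wild-type tumors and 1.50 (SE 0.21, adjusted p = 0.00223 by edgeR, n = 2 per group) in knockout tumors. Within lines the Balb/c level was 2.09-fold the NSG level for the parental line, 2.99-fold for vCas9 and 2.83-fold for both clones. The wild-type call was lost without the NSG vCas9 library, at an adjusted p of 0.0567, and the knockout call held in each of 15 alternatives. Knockout libraries lay below wild-type libraries in both hosts, with log2 fold changes of -0.71 (SE 0.21, adjusted p = 0.250 by edgeR) in NSG and -0.53 (SE 0.21, adjusted p = 0.133 by edgeR) in Balb/c, which did not pass. The antisense gene Zeb2os shares 653 of the 19942 exon bases of Zeb2 and had at most 163 counts, against 2442 to 17636 for Zeb2. The strand setting of the counting is unknown, so reads in that shared stretch cannot be assigned to 1 of the 2 genes.

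Zeb1, the other ZEB repressor (on chromosome 18), was high in the Balb/c wild-type tumors. Its level was 35.1 CPM in the parental and 54.3 CPM in the vCas9 tumor of NSG mice, and 74.3 and 64.2 CPM in the clone 54 and clone 69 tumors. In Balb/c mice it was 231 CPM (parental), 133 CPM (vCas9), 47.6 CPM (clone 54) and 77.4 CPM (clone 69). The Balb/c wild-type pair stood above the 6 other libraries, and the knockout pairs of the 2 hosts overlapped. In wild-type tumors Zeb1 rose in Balb/c by 2.03 on the log2 scale (SE 0.35, adjusted p = 0.00701 by edgeR, n = 2 per group). This call was lost without the NSG parental library, at an adjusted p of 0.0644. In knockout tumors the log2 fold change between hosts was -0.15 (SE 0.34, adjusted p = 0.773 by edgeR).

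The knockout effect on Zeb1 had opposite signs in the 2 hosts. In Balb/c tumors both knockout libraries lay below both wild-type libraries, with a log2 fold change of -1.55 (SE 0.35, unadjusted p = 0.00219 and adjusted p = 0.0570 by edgeR). In NSG tumors both knockout libraries lay above the wild-type pair, at 0.63 (SE 0.34, adjusted p = 0.440 by edgeR). The difference of these effects was -2.18 (SE 0.49, unadjusted p = 0.00217 and adjusted p = 0.0922 by edgeR) and did not pass. Leaving out single libraries moved the effect in Balb/c between -1.97 and -1.09 and the difference between -2.60 and -1.72. DESeq2 called both, at adjusted p-values of 0.000418 and 0.000952. A transcript on the opposite strand, Gm10125, shares 198 exon bases with Zeb1 and had at most 104 counts.

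The level of Ptprc, which encodes the leukocyte surface protein CD45, moved with Zeb2 between hosts. Its NSG libraries spanned 337 to 447 CPM and its Balb/c libraries 1404 to 2164 CPM. T cell markers were higher in Balb/c for 6 of the 6 tested in both genotypes, of 7 listed. Cd3g had 0 counts in 3 NSG libraries, and the NK cell gene Ncr1 had 0 counts in all 4. Macrophage markers did not follow the host alike: 8 of 9 passed as higher in Balb/c in knockout tumors, and 1 as higher and 3 as lower in wild-type tumors. The T cell and macrophage counts stand beside 31.5% of all genes called in wild-type and 31.1% in knockout tumors. The wild-type macrophage count was not far above that share. The knockout count of macrophage markers was 7 without the Balb/c clone 54 library and 8 without the clone 69 library. It was 3 without the NSG clone 54 library, 4 without the NSG clone 69 library and 3 with the line as a block, and leaving out any 1 of the 4 wild-type libraries gave 0 macrophage calls in wild-type tumors. There 6 macrophage markers were lower and 1 higher without either Balb/c knockout library, and also in the fit to the 4 wild-type libraries alone. In these bulk tumors, fewer cells of a type and less RNA per cell cannot be told apart, and the part of leukocytes in the Zeb1 and Zeb2 results was not tested. In the Balb/c knockout tumors Ptprc was at 1404 and 1661 CPM, whereas Zeb1, at 47.6 and 77.4 CPM, was close to its NSG libraries at 35.1 to 74.3 CPM.

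**Figure D3:**
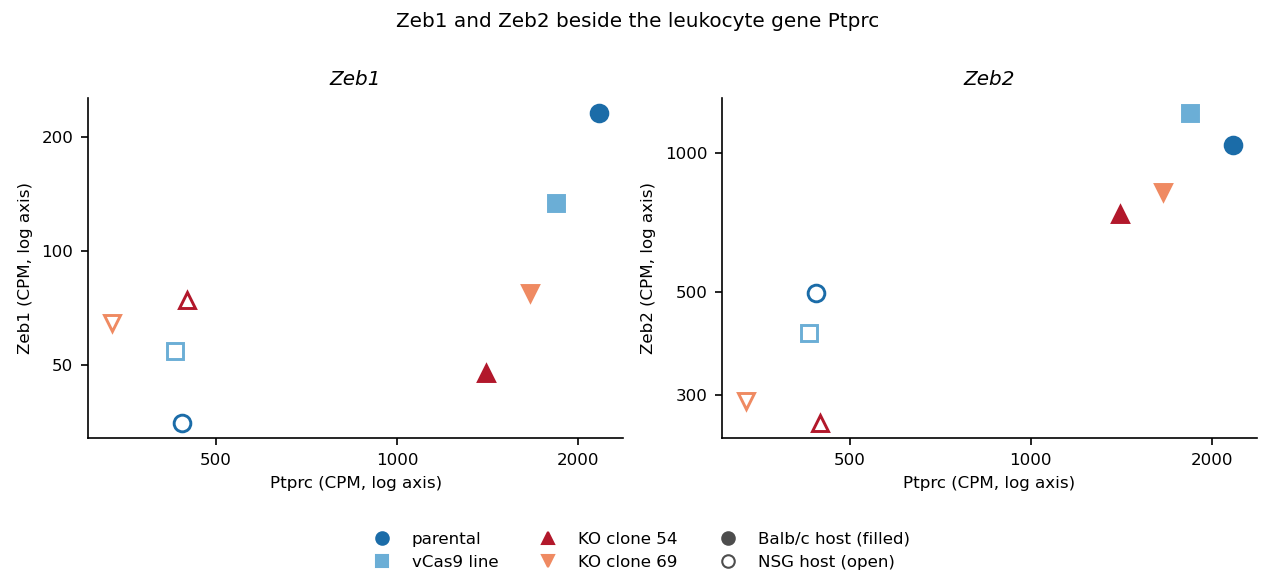
Zeb1 (left) and Zeb2 (right) in CPM against the leukocyte gene Ptprc in CPM, both on log axes, with 1 point per library. The 4 Balb/c libraries (filled) lie at higher Ptprc, from 1404 CPM, and at higher Zeb2, whereas the 2 filled knockout points of Zeb1 lie near the open NSG points.

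Snai1, a zinc finger repressor whose protein is short-lived (chromosome 2, 167538195 to 167542814), was lower in Balb/c in each of the 4 lines. NSG tumors had 16.6 CPM (parental), 17.3 CPM (vCas9), 12.5 CPM (clone 54) and 15.6 CPM (clone 69). Balb/c tumors had 5.44 CPM (parental), 7.28 CPM (vCas9), 3.97 CPM (clone 54) and 5.11 CPM (clone 69). The NSG and Balb/c libraries did not overlap, and the Balb/c level was 0.317 to 0.420 of the NSG level in the 4 lines. Snai1 fell in Balb/c by 1.41 on the log2 scale in wild-type tumors (SE 0.26, adjusted p = 0.00812 by edgeR, n = 2 per group) and fell by 1.64 in knockout tumors (SE 0.26, adjusted p = 0.00353 by edgeR, n = 2 per group). The wild-type call was lost when the NSG parental, the NSG vCas9 or the Balb/c parental library was left out, at adjusted p-values of 0.0550, 0.0536 and 0.0637, and the knockout call held in all 15 alternatives. Knockout log2 fold changes were -0.27 (SE 0.25) in NSG and -0.49 (SE 0.26) in Balb/c, with edgeR adjusted p-values of 0.648 and 0.238. The Snai1 promoter window printed above is the one with a single CACCTG match.

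Snai2, known as Slug and expressed in basal mammary cells and mesenchyme (chromosome 16, 14705852 to 14709385), was high in the NSG knockout pair. Its level was 1.87 CPM (parental) and 2.98 CPM (vCas9) in NSG wild-type tumors and 6.96 CPM (clone 54) and 8.45 CPM (clone 69) in NSG knockout tumors. In Balb/c tumors it was 2.63, 2.49, 2.49 and 2.04 CPM in the same order of lines. The NSG knockout pair lay above the 6 other libraries, which overlapped. Between hosts Snai2 fell in knockout tumors by 1.76 on the log2 scale (SE 0.35, adjusted p = 0.00831 by edgeR, n = 2 per group), a call lost without the NSG clone 69 library at an adjusted p of 0.0524. In wild-type tumors the host log2 fold change was 0.09 (SE 0.36, adjusted p = 0.872 by edgeR). The knockout log2 fold change was 1.67 in NSG (SE 0.35, unadjusted p = 0.00152 and adjusted p = 0.185 by edgeR) and -0.17 in Balb/c (SE 0.36, adjusted p = 0.760 by edgeR). Their difference was -1.84 (SE 0.50, unadjusted p = 0.00624 and adjusted p = 0.113 by edgeR) and did not pass. Snai2 rested on 27 to 85 counts per library.

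Twist1, a basic helix-loop-helix factor of mesoderm and neural crest (chromosome 12, 33957671 to 33959829), was lower in Balb/c in each line. NSG tumors had 16.5 CPM (parental), 14.7 CPM (vCas9), 15.2 CPM (clone 54) and 20.9 CPM (clone 69). Balb/c tumors had 5.44, 3.60, 4.44 and 2.41 CPM in that order. No library of one host overlapped the other. Twist1 fell in Balb/c by 1.79 on the log2 scale in wild-type tumors (SE 0.36, adjusted p = 0.0106 by edgeR, n = 2 per group) and fell by 2.38 in knockout tumors (SE 0.36, adjusted p = 0.00283 by edgeR, n = 2 per group). Without the NSG parental, the NSG vCas9 or the Balb/c vCas9 library the wild-type call was lost, at adjusted p-values of 0.0690, 0.0521 and 0.0820, and the knockout call held in all 15 alternatives. The wild-type and knockout libraries of Twist1 overlapped in both hosts, with log2 fold changes of 0.21 (SE 0.34) in NSG and -0.38 (SE 0.36) in Balb/c.

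Twist2, the related factor Dermo1 of dermal and bone mesenchyme (chromosome 1, 91801461 to 91848028), was read at 7 to 65 counts per library. Its level was 4.22 and 5.38 CPM in NSG wild-type, 3.85 and 4.87 CPM in NSG knockout, 2.72 and 1.87 CPM in Balb/c wild-type and 2.49 and 0.511 CPM in Balb/c knockout tumors. All 4 lines gave less in Balb/c than in NSG and the hosts did not overlap, but the test did not pass. The log2 fold changes between hosts were -1.07 (SE 0.61, adjusted p = 0.203 by edgeR) in wild-type and -1.50 (SE 0.62, adjusted p = 0.103 by edgeR) in knockout tumors. Without the Balb/c clone 54 library the knockout value was -3.10 (adjusted p = 0.00717 by edgeR), so that 1 library decided it. The wild-type value of -1.07 was called without the Balb/c clone 69 library, at an adjusted p of 0.0436 by edgeR. The annotated antisense transcript Gm29100 shares 1477 exon bases with Twist2 and was not in the count table.

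The median of fibroblast markers was lower in Balb/c, as were Snai1 and Twist1. The 12 markers, all found and none at 0 in any library, had sums between 18627 and 35987 CPM in NSG tumors and between 4661 and 14259 CPM in Balb/c tumors. In knockout tumors 10 of the 12 fell in Balb/c and the median log2 fold change was -1.54. Without the Balb/c clone 54 library 12 of the fibroblast markers fell, and without the clone 69 library 5 did, with medians of -2.22 and -1.17. The count was 4 without the NSG clone 54 library, 6 without the NSG clone 69 library and 6 with the line as a block. In wild-type tumors 1 of the 12 fell and the median was -0.61. With the line as a block, or without any 1 of the 4 wild-type libraries, none of the 12 fell there. There 2 fell without the Balb/c clone 54 library, 5 without the clone 69 library, and in the fit to the 4 wild-type libraries alone 4. The wild-type median was -0.27 without the Balb/c vCas9 and -0.34 without the NSG vCas9 library. Of 5 adipocyte markers, 4 fell in Balb/c in knockout tumors and 2 in wild-type tumors, with medians of -3.55 and -2.17. The adipocyte sum was 105 to 139 CPM in NSG knockout and 200 to 265 CPM in Balb/c knockout tumors, and 107 to 159 against 35.4 to 83.0 CPM in wild-type tumors. The knockout count of adipocyte markers was 3 without any 1 of the 4 knockout libraries, and in wild-type tumors it was 0 without the Balb/c parental or the NSG vCas9 library and 1 without the NSG parental library or with the line as a block. Of 9 endothelial markers 3 fell in wild-type tumors and 1 rose in knockout tumors. The marker counts of this paragraph stand beside 31.5% of all genes called in wild-type and 31.1% in knockout tumors, so that the wild-type fibroblast count and the knockout endothelial count lay below the background and the wild-type endothelial count was close to it. The endothelial count in wild-type tumors was 0 without the Balb/c parental or the NSG vCas9 library, 1 without the NSG parental or the Balb/c clone 54 library, 2 without the Balb/c vCas9 library and 2 with the line as a block. In knockout tumors no endothelial marker rose without the Balb/c clone 54 library or either NSG knockout library. The part of fibroblasts, adipocytes and endothelial cells in the Snai1, Snai2, Twist1 and Twist2 results was not tested.

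Vim, the intermediate filament gene of mesenchymal cells (chromosome 2, 13573927 to 13582826), was highest in the NSG parental tumor. It had 4533 CPM there and 2960 CPM in the NSG vCas9 tumor, and 1844 and 2313 CPM in the NSG clone 54 and clone 69 tumors. In Balb/c mice the parental, vCas9, clone 54 and clone 69 tumors had 1700, 2057, 3175 and 1813 CPM. The NSG wild-type pair lay above the NSG knockout and the Balb/c wild-type pairs, and the Balb/c knockout pair overlapped each of the other pairs. No comparison passed: the host log2 fold change was -0.996 (SE 0.36, adjusted p = 0.0668 by edgeR) in wild-type and 0.26 (SE 0.36, adjusted p = 0.609 by edgeR) in knockout tumors. The knockout log2 fold change was -0.85 (SE 0.36, unadjusted p = 0.0454 and adjusted p = 0.347 by edgeR) in NSG and 0.41 (SE 0.36, adjusted p = 0.458 by edgeR) in Balb/c. The difference of the knockout effects was 1.26 (SE 0.50, adjusted p = 0.196 by edgeR), and leaving out single libraries moved it between 0.68 and 1.62. The host comparison of wild-type tumors passed in 5 of 15 alternatives, among them DESeq2 and the fit to those 4 libraries alone.

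Cdh2 encodes N-cadherin, the cadherin of neural and mesenchymal cells (on chromosome 18), and was scarce in each library. NSG tumors had 3.81, 6.30, 4.82 and 5.97 CPM and Balb/c tumors 3.23, 4.02, 4.60 and 2.26 CPM, in the order parental, vCas9, clone 54 and clone 69. The hosts overlapped in wild-type tumors, and in knockout tumors the NSG pair lay just above the Balb/c pair. Its log2 fold changes ran from -0.64 (SE 0.43, adjusted p = 0.291 by edgeR) between hosts in knockout tumors to 0.10 (SE 0.43, adjusted p = 0.935 by edgeR) for the knockout in NSG. Leaving out single libraries moved the host value in knockout tumors between -1.28 and -0.22. A switch from Cdh1 to Cdh2 is a usual mark of the transition. Here Cdh1 exceeded Cdh2 per kilobase in each library, the lowest Cdh1 value being 12.6 CPM per kb and the highest Cdh2 value 0.780 CPM per kb.

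Cdh1, which encodes E-cadherin of adherens junctions (chromosome 8, 106603351 to 106670246), was low in the NSG wild-type tumors. It had 57.8 CPM in the parental and 98.7 CPM in the vCas9 tumor there, and 271 and 206 CPM in the NSG clone 54 and clone 69 tumors. The Balb/c tumors had 102 CPM (parental), 200 CPM (vCas9), 215 CPM (clone 54) and 250 CPM (clone 69). The knockout pair lay above the wild-type pair in each host, with a wide gap in NSG and a narrow one in Balb/c. The knockout log2 fold change was 1.61 in NSG (SE 0.37, unadjusted p = 0.00246 and adjusted p = 0.202 by edgeR) and 0.62 in Balb/c (SE 0.36, adjusted p = 0.272 by edgeR). Leaving out single libraries moved the Balb/c value between 0.22 and 1.10. Of 14 alternatives 2 called the NSG effect, DESeq2 at an adjusted p of 0.00263 and the fit without a count filter at 0.0298. Between hosts the log2 fold change was 0.95 (SE 0.36, adjusted p = 0.0775 by edgeR) in wild-type and -0.03 (SE 0.36, adjusted p = 0.955 by edgeR) in knockout tumors. Leaving out single libraries moved the wild-type value between 0.46 and 1.38. Of 15 alternatives 2 called it, DESeq2 at an adjusted p of 0.0204 and the fit without a count filter at 0.0255.

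Epcam, a cell adhesion gene of simple epithelia and carcinomas (chromosome 17, 87635979 to 87651129), varied most between libraries after Twist2, with a 9.21-fold span. Its promoter window, printed above, is the one with 2 CACCTG matches. In NSG tumors it had 47.5 CPM (parental), 116 CPM (vCas9), 416 CPM (clone 54) and 288 CPM (clone 69). In Balb/c tumors it had 65.1, 133, 45.2 and 228 CPM in the same order. The knockout pair was clearly above the wild-type pair in NSG, and in Balb/c the 2 clones fell on either side of the wild-type pair. The knockout log2 fold change was 2.11 in NSG (SE 0.75, unadjusted p = 0.0227 and adjusted p = 0.298 by edgeR) and 0.46 in Balb/c (SE 0.72, adjusted p = 0.689 by edgeR). In Balb/c the value turned to -1.13 without the clone 69 library and was 1.10 without the clone 54 library. Between hosts Epcam moved up in both wild-type lines, 1.37-fold (parental) and 1.15-fold (vCas9), and down in both clones, to 0.109 (clone 54) and 0.792 (clone 69) of the NSG level. The host log2 fold changes were 0.29 (SE 0.72, adjusted p = 0.781 by edgeR) and -1.37 (SE 0.73, adjusted p = 0.190 by edgeR), and their difference was -1.65 (SE 1.02, adjusted p = 0.369 by edgeR). The host value in knockout tumors was -0.65 without the Balb/c clone 54 library and -2.96 without the clone 69 library. With clone 54 as the sole Balb/c knockout library the difference was -3.24.

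Relative to Vim, Cdh1 was lowest in the NSG parental tumor. There were 78.5 Vim reads for each Cdh1 read in that library and 30.0 in the NSG vCas9 library. The 6 other libraries had 6.82 to 16.6. Cdh1 and Epcam were also set against the keratins Krt8 and Krt18, which mark simple epithelium and 4T1 cells and which the host cells of a tumor largely lack. The keratin sum was 890 and 967 CPM in NSG wild-type, 1580 and 1185 CPM in NSG knockout, 452 and 1157 CPM in Balb/c wild-type and 301 and 2353 CPM in Balb/c knockout tumors. Per 1000 keratin CPM, Cdh1 had 64.9 and 102 CPM in the NSG wild-type pair and 171 and 174 CPM in the NSG knockout pair. In Balb/c it had 227 and 173 CPM per 1000 in the wild-type pair. The Balb/c clone 54 library reached 714 per 1000 and the clone 69 library 106, so that Cdh1 did not go along with the keratins there. Epcam per 1000 keratin CPM was 53.4 and 120 in NSG wild-type, 264 and 243 in NSG knockout, 144 and 115 in Balb/c wild-type and 150 and 96.9 in Balb/c knockout tumors. For both genes the NSG knockout libraries had higher values per keratin CPM than the NSG wild-type libraries. The part of the tumor cell share in these values was not tested.

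**Figure D4:**
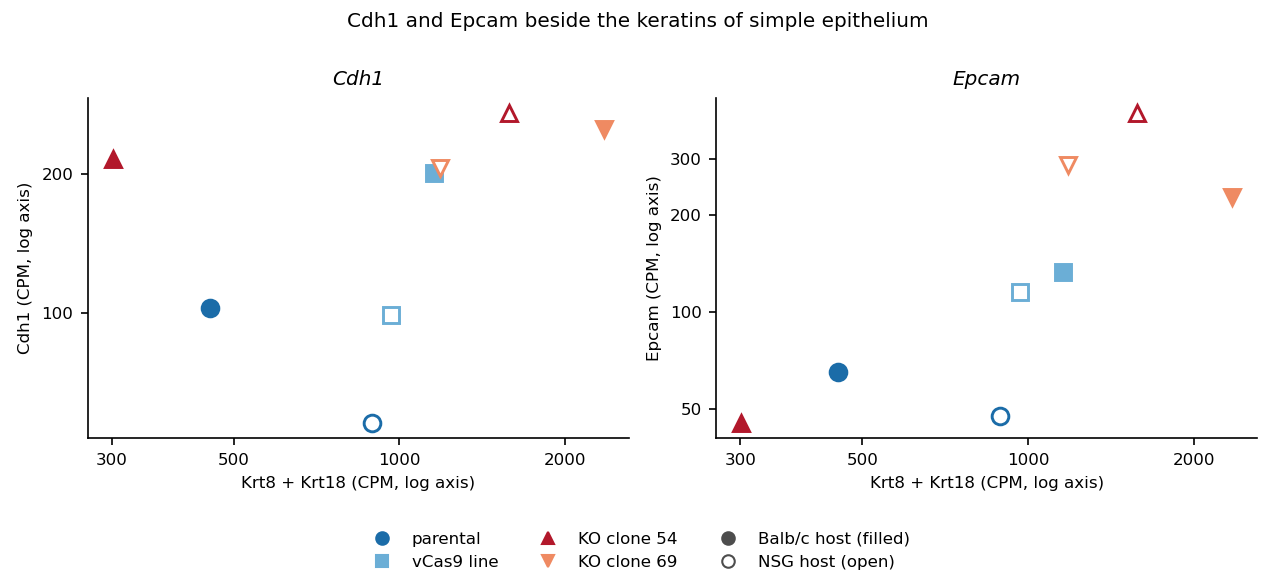
Cdh1 (left) and Epcam (right) in CPM against the sum of Krt8 and Krt18 in CPM, both on log axes, with 1 point per library. The Balb/c clone 54 library has the lowest keratin sum, 301 CPM, together with 45.2 CPM of Epcam and 215 CPM of Cdh1.

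A list of 28 further epithelial genes, holding claudins, keratins, desmosome genes and the regulators Esrp1, Esrp2, Grhl1, Grhl2, Ovol1 and Ovol2, was examined in the same fits. For the knockout in NSG, 28 of the 28 had a positive log2 fold change with a median of 1.31, against 0.01 over all genes, and none passed the threshold. Without the NSG clone 54 library the median was 0.74, with 26 of the 28 positive. At an unadjusted p under 0.05, edgeR counted 5, with no share of all genes at that threshold to set beside it. DESeq2, whose total over all genes is given under the processing, called 2 of the 28 higher. In the same comparison the median was 1.40 over 5 adipocyte markers, 0.63 over 12 fibroblast markers, 0.41 over 9 endothelial markers and -0.88 over 9 macrophage markers, with none past the threshold by edgeR, and their part in the epithelial values was not tested. The endothelial median turned to -0.06 without the NSG clone 69 library and was 0.77 without the NSG clone 54 library. It was 0.11 without the NSG parental and 0.96 without the NSG vCas9 library. The smallest p belonged to Ehf, an ETS factor of epithelia, at 2.61 (SE 0.75, adjusted p = 0.247 by edgeR). Between hosts in wild-type tumors 2 of the 28 rose in Balb/c and none fell, or 7.14% of the list against 31.5% of all genes. They were Grhl1, a grainyhead factor of epithelial barriers, at 3.59 (SE 0.65, adjusted p = 0.00767 by edgeR), and Ehf at 2.44 (SE 0.74, adjusted p = 0.0404 by edgeR). Neither was called without the NSG parental or without the NSG vCas9 library, nor was Ehf without either Balb/c wild-type library or with the line as a block. The median of the list was 0.42 against -0.08 over all genes. It turned to -0.16, with 11 of the 28 positive, without the Balb/c vCas9 library, and was 0.90 without the Balb/c parental, 0.037 without the NSG parental and 0.99 without the NSG vCas9 library. In knockout tumors none of the 28 passed between hosts, against 31.1% of all genes, with a median of -0.33 and 5 at an unadjusted p under 0.05. That median turned to 0.14 without the NSG clone 54 library and was -0.76 without the NSG clone 69 library and -0.79 with the line as a block. DESeq2 called 3 lower and 1 higher there, and the fit without a count filter 4 lower and 1 higher. By limma-voom 3 were lower, with a median of -0.88, and with total-count scaling 2 were lower, with a median of -0.51.

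The 2 libraries of the Balb/c knockout pair lay far apart on this list. The median of its genes, each relative to its mean over the 8 libraries on the log2 scale, was -1.36 in the Balb/c clone 54 library and 1.29 in the clone 69 library. Of the 28 genes, 18 were lowest in the first and 12 were highest in the second. A further 12 were highest in the NSG clone 54 library, whose median was 1.15. Clone 69 exceeded clone 54 for 26 of the 28 in Balb/c mice, and clone 54 exceeded clone 69 for 27 of the 28 in NSG mice. The order of the clones thus differed between the single libraries of the 2 hosts, whereas the vCas9 library exceeded the parental library for 24 of 28 in NSG and 28 of 28 in Balb/c. Each line had 1 library per host, and genes of the same library are not independent replicates. The part of the tumor cell share in these orders was not tested. The knockout median in Balb/c was 0.40, with no gene past the threshold and none at an unadjusted p under 0.05. The smallest p was that of Tjp3, at 0.75 (SE 0.43, adjusted p = 0.260 by edgeR). Without the clone 69 library the knockout median in Balb/c was -1.33, and without the clone 54 library it was 1.05. It turned to -0.11 without the Balb/c parental library, with 13 of the 28 positive, and also by limma-voom, with 11 positive, and was 1.06 without the Balb/c vCas9 library, with 26 positive. Between hosts in knockout tumors, the median was -2.10 without the Balb/c clone 69 library and 0.31 without the clone 54 library. For the difference of the knockout effects, 25 of the 28 log2 fold changes were negative with a median of -1.15, and none passed or had an unadjusted p under 0.05. That median was -2.72 without the Balb/c clone 69 library and -0.55 without the Balb/c clone 54 library. It was -0.53 without the Balb/c vCas9 and -0.58 without the NSG clone 54 library.

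**Figure D5:**
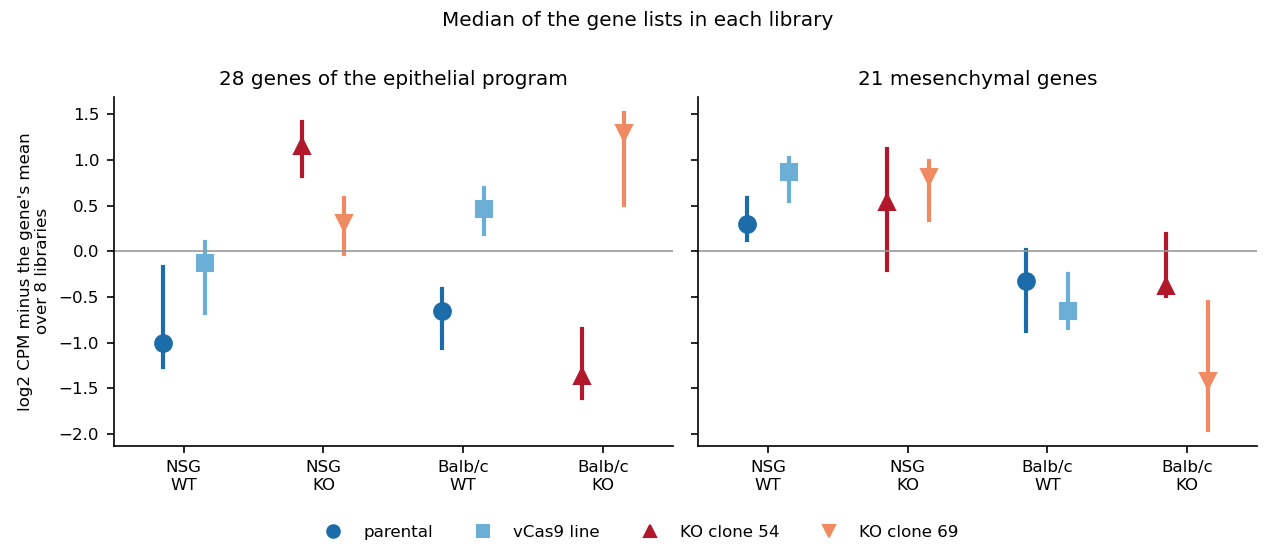
Median of the log2 CPM of 28 epithelial genes (left) and 21 mesenchymal genes (right) in each library, each gene taken relative to its mean over the 8 libraries. Bars span the middle 50% of the genes; the 2 Balb/c knockout libraries are the lowest and the highest of the epithelial panel, at -1.36 and 1.29, and the mesenchymal medians are above 0 in NSG and below 0 in Balb/c.

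Among 21 mesenchymal genes other than Vim and Cdh2, most of those that passed were lower in Balb/c. In wild-type tumors 7 fell and 1 rose between hosts, or 38.1% of the list against 31.5% of all genes, with a median of -1.08. With the line as a block 1 fell and 1 rose. Without either Balb/c wild-type library none was called, and without either NSG wild-type library 1 fell. In contrast 12 fell without the Balb/c clone 54 library, 14 without the clone 69 library, and in the fit to the 4 wild-type libraries alone 15 fell and 2 rose. Over all genes the wild-type count of 4825 moved likewise, to between 858 and 1482 without a wild-type library, to 6165 and 6361 without the Balb/c clone 54 and clone 69 libraries, and to 6838 with the 4 libraries alone. Tnc, the matrix protein tenascin C, fell by 2.36 (SE 0.57, adjusted p = 0.0194 by edgeR), and Acta2, smooth muscle actin, fell by 1.97 (SE 0.54, adjusted p = 0.0286 by edgeR). The receptor gene Fgfr1 rose by 1.63 (SE 0.36, adjusted p = 0.0153 by edgeR). None of these 3 was called when any 1 of the 4 wild-type libraries was left out, and Tnc and Acta2 were not called with the line as a block. The value of Acta2 was -1.26 without the NSG vCas9 library. In knockout tumors 10 fell and 1 rose, or 52.4% against 31.1% of all genes, with a median of -1.34. Without the Balb/c clone 54 library 14 fell, with a median of -2.33, and without the clone 69 library 11 fell, with a median of -0.93. Without either NSG knockout library 5 fell, and in the fit to the 4 knockout libraries alone 3 fell. With the line as a block 8 fell and none rose. Tnc fell by 2.92 (SE 0.58, adjusted p = 0.00815 by edgeR) and the proteoglycan gene Vcan fell by 2.82 (SE 0.35, adjusted p = 0.00137 by edgeR), both called in all 15 alternatives. Tgfbi, a secreted matrix protein gene, rose by 0.99 (SE 0.29, adjusted p = 0.0353 by edgeR) and was called in 7 of 15.

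For the knockout, 1 of the 21 mesenchymal genes passed in Balb/c and none in NSG, against 0.176% and 0.0131% of all genes. DESeq2 called 4 lower in Balb/c and 2 in NSG, and the fit without a count filter 4 in Balb/c. Both settings called more genes in all, as given under the processing. Itga5, the fibronectin receptor subunit, fell in Balb/c by 1.37 (SE 0.17, adjusted p = 0.0450 by edgeR), from 271 ± 1.67 CPM (SD, n = 2) in wild-type to 105 ± 4.61 CPM (SD, n = 2) in knockout tumors. It was called in 5 of 14 alternatives, and each of 14 kept its direction. In NSG it had the smallest p of the list, at -0.90 (SE 0.16, adjusted p = 0.141 by edgeR), from 309 ± 25.8 to 165 ± 14.0 CPM (SD, n = 2). The list's median was 0.04 in NSG, with 3 genes at an unadjusted p under 0.05, and -0.47 in Balb/c. The Balb/c median was -1.05 without the clone 54 library and 0.027 without the clone 69 library. It was -0.081 without the Balb/c parental and -0.79 without the Balb/c vCas9 library. In NSG it turned to -0.14 without the clone 69 library and to -0.25 without the parental library.

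Partners, relatives and modifiers of the factors formed a list of 22 genes. Between hosts 5 fell and 1 rose in wild-type tumors, and 6 fell and 2 rose in knockout tumors. These are 27.3% and 36.4% of the list, near the 31.5% and 31.1% of all genes. Leaving out any 1 of the 4 wild-type libraries left at most 1 call in wild-type tumors, and with the line as a block 2 fell there and 4 fell and 1 rose in knockout tumors. In wild-type tumors 5 fell and 3 rose without the Balb/c clone 54 library, 6 fell and 3 rose without the clone 69 library, and 6 fell and 5 rose in the fit to the 4 libraries alone. That fit gave 3 lower and 1 higher in knockout tumors. In knockout tumors 5 fell and 1 rose without the Balb/c clone 54 library, and without the clone 69 library 6 fell and 2 rose. Foxc2, a forkhead factor of mesenchyme, fell by 1.86 in wild-type (SE 0.46, adjusted p = 0.0209 by edgeR) and fell by 3.77 in knockout tumors (SE 0.51, adjusted p = 0.00180 by edgeR). Sox4 fell by 1.25 in wild-type tumors (SE 0.24, adjusted p = 0.0101 by edgeR), and Prrx1, a homeobox gene of limb and stromal mesenchyme, fell by 2.24 in knockout tumors (SE 0.39, adjusted p = 0.00462 by edgeR). Gsk3b, the kinase that marks Snai1 protein for decay, rose by 0.73 in wild-type tumors (SE 0.14, adjusted p = 0.00935 by edgeR). Id2 and Id4, which sequester helix-loop-helix partners of TWIST factors, rose in knockout tumors by 2.16 (SE 0.22, adjusted p = 0.000630 by edgeR) and 1.67 (SE 0.48, adjusted p = 0.0334 by edgeR). The knockout calls of Foxc2, Prrx1 and Id2 held in all 15 alternatives and that of Id4 in 7, whereas Foxc2, Sox4 and Gsk3b in wild-type tumors were lost when any 1 of the 4 wild-type libraries was left out. Foxc2 and Gsk3b in wild-type tumors and Id4 in knockout tumors were also lost with the line as a block. The knockout effect passed for none of the 22 in either host. In Balb/c the median went from -0.17 to -0.32 without the clone 69 library. DESeq2 called 2 lower in Balb/c and 1 in NSG, as did the fit without a count filter. The smallest p-values were those of Id2 in NSG, at -1.40 (SE 0.21, adjusted p = 0.103 by edgeR), and Sox4 in Balb/c, at -0.91 (SE 0.24, adjusted p = 0.0677 by edgeR), with 3 and 8 genes at an unadjusted p under 0.05.

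Of 15 inducers and signalling genes, 5 rose and 1 fell between hosts in wild-type tumors, and 5 rose and 2 fell in knockout tumors. These are 40.0% and 46.7% of the list, against 31.5% and 31.1% of all genes. With total-count scaling 3 rose and 1 fell in wild-type tumors, and 2 rose and 4 fell in knockout tumors. No gene of the list rose in wild-type tumors without either NSG wild-type library, 2 rose without either Balb/c wild-type library, and 3 rose with the line as a block. By contrast 7 rose without the Balb/c clone 54 library, by DESeq2 and without a count filter, 6 rose without the clone 69 library, and 8 rose and 2 fell in the fit to the 4 libraries alone. In knockout tumors 1 rose with the line as a block, without either NSG knockout library or in the fit to the 4 libraries alone, and 2 rose without any 1 of the wild-type libraries. There 6 rose and 3 fell without the Balb/c clone 54 library, and without the clone 69 library 2 rose and 4 fell. Notch1 rose by 2.46 in wild-type (SE 0.48, adjusted p = 0.0101 by edgeR) and by 1.57 in knockout tumors (SE 0.47, adjusted p = 0.0371 by edgeR). The transcription factor gene Stat3 rose by 1.24 in wild-type tumors (SE 0.24, adjusted p = 0.00943 by edgeR) and Tgfb1 by 0.89 in knockout tumors (SE 0.17, adjusted p = 0.00621 by edgeR). Among the other ligands of the TGF-beta receptors, Tgfb3 fell by 1.61 in wild-type (SE 0.19, adjusted p = 0.00207 by edgeR) and fell by 1.01 in knockout tumors (SE 0.19, adjusted p = 0.00665 by edgeR), and Tgfb2 fell by 1.68 in knockout tumors (SE 0.34, adjusted p = 0.00854 by edgeR). Tgfb1 rose and Tgfb2 and Tgfb3 fell in the same knockout tumors. The calls of Tgfb3 in both genotypes and of Tgfb1 in knockout tumors held in all 15 alternatives, and that of Notch1 in knockout tumors in 5, the paired fit with the line as a block not among them. The knockout value of Notch1 ran from 0.52, without the Balb/c clone 69 library, to 2.15. In wild-type tumors Notch1 and Stat3 were both lost without the NSG parental or the NSG vCas9 library, Stat3 also without the Balb/c parental library, and in knockout tumors Tgfb2 was lost without the NSG clone 69 library. None of the 15 passed for the knockout, with 13 of 15 log2 fold changes negative in each host. In Balb/c the median was -0.64 without the clone 69 library and -0.39 without the clone 54 library, in place of -0.45. DESeq2 called 2 lower in Balb/c and 1 in NSG, and the fit without a count filter 2 in Balb/c. The smallest p-values were those of Tgfb1 in NSG, at -0.66 (SE 0.16, adjusted p = 0.213 by edgeR), and Tgfb2 in Balb/c, at -1.34 (SE 0.33, adjusted p = 0.0620 by edgeR), with 3 genes in each host at an unadjusted p under 0.05.

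MicroRNAs of the miR-200 family restrain Zeb1 and Zeb2 in epithelial cells. Their 5 loci were in the count tables, none passed the count filter, and the most reads of a locus in a library was 10. No statement on these microRNAs is possible from such counts.

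The genes whose profile over the 8 libraries was nearest to that of a member were taken among 11429 genes with a mean of at least 5 CPM, by the root mean square difference of centred log2 CPM. Epcam was nearest to Esrp1 (0.21), a splicing regulator of epithelia, and to Nipal2 (0.23). Cdh1 was nearest to Mansc1 (0.23) and Unc13b (0.28), Zeb1 to Foxo1 (0.23) and Greb1l (0.23), and Zeb2 to Cln3 (0.14) and Gna13 (0.18). Snai1 had Map3k20 (0.13) and Zcchc14 (0.14), Snai2 had Fgf1 (0.22) and Slc12a5 (0.24), and Twist1 had Apcdd1 (0.11) and Nek2 (0.16). For Twist2 they were Col5a3 (0.21) and Loxl2 (0.22), for Vim Rap2a (0.12) and Vwa5a (0.17), and for Cdh2 Spon1 (0.19) and Gpm6b (0.20). The spread of the members themselves around their means ran from 0.43 for Cdh2 to 1.129 for Epcam on the same scale, and these likenesses over 8 shared libraries are a description.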

How the data were processed

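RNA was measured in 8 bulk tumor libraries, 1 from each of 4 lines of 4T1 in each of 2 hosts. The deposited values were raw read counts per Ensembl gene, with no normalization visible in them. Per the submitters' processing notes, cutadapt 1.13, STAR, HTSeq 0.6.1p1 and DESeq2 were named as tools and mm10 and hg19 as builds, with no role or order. The strand setting, annotation and any filter were not given in the sources used here. Symbols were found for 24942 of 25006 identifiers, and positions and exon lengths came from GENCODE M21 on GRCm38, which may not be the authors' annotation.

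Here the counts entered edgeR 4.0.16 (R 4.3.3) with TMM, filterByExpr and quasi-likelihood tests on 4 group means over all 8 libraries. The fit had 4 residual degrees of freedom and a common biological coefficient of variation of 0.244. The Benjamini-Hochberg adjustment ran over all 15310 genes tested, and 0.05 was the threshold. A standard error is the fold change divided by the root of its F statistic. Centred log2 CPM values used a prior count of 2. The procedure was tested on simulated data. Alternatives were RLE or total-count scaling, no count filter, limma-voom (limma 3.58.1), DESeq2 1.42.0, cell line as a replicate block, the 4 libraries compared alone, and leaving out each library. With 1 library left in a group, that library is assumed to vary like the other groups. The replicates of a group are different lines, so p-values measure the spread between such libraries.

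The same 4 lines were grown in both hosts, which pairs libraries across hosts. The difference between the 2 lines of a group correlated between hosts at r = 0.087 for the wild-type lines and -0.35 for the clones, across genes, which are not independent replicates. Depth was 8.68 to 19.7 M counts, so that 3 counts stood for 0.159 to 0.321 CPM, a limit that covers counting error only. The members and gene lists were chosen with earlier results of these data known. Genes named beyond the 10 were up to 2 per direction and list with the largest fold change past the threshold, otherwise the one with the smallest p, and the 2 nearest profiles of each member.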

Additional observations from a re-analysis of the deposited data

How the results depend on the processing

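The counts of calls moved more with the setting than the directions did. When the line entered as a replicate block, pairing the hosts, 2073 genes passed between hosts in wild-type tumors and 2878 in knockout tumors, and the calls on members stayed at 4 and 4, with the same genes, while counts over the gene lists were mostly lower, as given with each list; the block changed no call on the difference of knockout effects, for which 0 genes passed. No paired analysis was possible for the knockout effects because wild-type and knockout tumors come from different lines. With the 4 compared libraries alone, 2450 genes passed between hosts in knockout tumors, 1 for the knockout in NSG and 0 in Balb/c. DESeq2 called 340 genes (3 members) for the knockout in NSG, 2144 (2 members) in Balb/c and 974 (1 member) for their difference. Without a count filter these were 133 (1), 1774 (1) and 674 (1). RLE scaling gave 94 genes for the knockout in Balb/c and limma-voom 1 in NSG. Total-count scaling moved the median of all genes from -0.08 to -0.24 between hosts in wild-type tumors and from 0.02 to -0.17 in knockout tumors, and turned Snai2 in wild-type tumors to -0.074. It moved the split of host calls from 2344 higher and 2481 lower to 1905 and 3315 in wild-type tumors and from 2403 and 2354 to 1756 and 2951 in knockout tumors.

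Leaving out 1 library at a time gave 858 to 6361 genes (1 to 6 members) between hosts in wild-type tumors and 2461 to 4640 in knockout tumors (3 to 5 members). It gave 0 to 1 genes for the knockout in NSG, 0 to 3886 (0 to 1 members) in Balb/c and 0 to 2370 (0 to 3 members) for their difference, with the highest Balb/c and difference counts without the clone 69 library of Balb/c. Some uncalled log2 fold changes turned sign. Between hosts in wild-type tumors Snai2 ran from -0.23 to 0.44 and Epcam from -0.26 to 1.05. Between hosts in knockout tumors Zeb1 ran from -0.53 to 0.14, Vim from -0.22 to 0.62 and Cdh1 from -0.22 to 0.18. For the knockout in NSG, Twist1 ran from -0.043 to 0.41, Twist2 from -0.32 to 0.041 and Cdh2 from -0.23 to 0.49. In Balb/c, Twist2 ran from -2.24 to 0.13, Vim from -0.15 to 0.76, Cdh2 from -0.78 to 0.35 and Epcam from -1.13 to 1.10. For the difference, Twist2 ran from -2.12 to 0.27 and Cdh2 from -0.89 to 0.25. The causes of these changes were not tested. Of the values of the 10 genes under all alternatives, 666 kept their direction and their side of the threshold, 9 lost a call, 23 gained one and 22 turned sign. Depth limits Twist2, Snai2 and Cdh2 most, at 7 to 87 counts per library.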
